A study of Mus musculus with 8 samples.

Results

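The genes described here are 36 mouse genes of cholesterol and fatty acid synthesis, out of 39179 genes counted in each library. They were taken from a list of named genes, found in the count files by their Ensembl IDs, and all 36 were in the files. Of the 36, 7 encode enzymes of the mevalonate and isoprenoid arm, 11 encode enzymes from squalene to cholesterol, and 6 encode the SREBP control proteins and a sterol carrier. A further 5 encode enzymes of acetyl-CoA supply and fatty acid synthesis, 5 encode desaturases and elongases, and 2 encode sterol efflux pumps. All 36 passed the filter on low counts.

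The 8 RNA-seq libraries came from antigen-specific CD4 T cells of the mouse, in 4 groups of 2. The groups are follicular helper T cells (Tfh) with the Bach2 vector, Tfh cells with the empty vector, non-Tfh CD4 T cells with the Bach2 vector, and non-Tfh cells with the empty vector. The donor cells carried the Smarta T cell receptor transgene together with the tamoxifen-activated recombinase CreERT2. They were transduced with a retrovirus whose Bach2 cassette, or empty control, is switched on by that recombinase, and were given to C57BL/6 recipients. The recipients were immunized under the skin with nitrophenol and the peptide GP61-80 on mouse serum albumin. Tamoxifen was injected on day 5, and the inguinal lymph nodes were pooled and taken 18 hours later, on day 6. Thy-1.1+ CD44hi cells were sorted as CXCR5+ PD-1+ (Tfh) or CXCR5- PD-1- (non-Tfh). The receptor transgene, the recombinase, the transduction and the tamoxifen are shared by all 4 groups, so no group shows cells without them. The labels do not say whether the 2 replicates of a group came from separate animals or cultures, and p-values then measure only the spread between these samples.

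Cells make cholesterol from acetyl-CoA through mevalonate, farnesyl diphosphate, squalene and lanosterol. The transcription factors SREBP2 and SREBP1, encoded by Srebf2 and Srebf1, turn on the genes of this route and of fatty acid synthesis when membrane sterol is low, while the INSIG proteins hold their escort protein SCAP in the endoplasmic reticulum when sterol is plentiful. Oxidised sterols activate the nuclear receptor LXR, which turns on the efflux pumps Abca1 and Abcg1, and dividing T cells are known to raise sterol and fatty acid synthesis to build membrane.

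Library totals ran from 7862879 to 9889859 counts, and the 36 genes together held 0.237% to 0.256% of a library. CPM values are counts scaled to library size and composition, and 3 counts, the limit that a count of 0 allows, correspond to 0.303 to 0.382 CPM. Bach2, the gene carried by the vector and a transcription repressor, was at 120.9 and 134.8 CPM in Tfh cells with the Bach2 vector, against 11.2 and 14.0 CPM with the empty vector. In non-Tfh cells it was at 130.5 and 157.5 CPM with the Bach2 vector, against 24.9 and 28.9 CPM with the empty vector. The T cell marker Cd3e was at 1224 to 1800 CPM in all 8 libraries. The sort was visible in all 4 Tfh marker genes examined (Cxcr5, Pdcd1, Bcl6 and Il21), each of them higher in the Tfh libraries under either vector. Cxcr5, for example, had log2 fold changes of 4.91 with the Bach2 vector and 5.05 with the empty vector. Among 7 B cell markers, Ighm was at 319 to 819 CPM and Cd22 at 77.8 to 230.3 CPM, while Cd79a and Ms4a1 stayed at or below 3.06 CPM in every library. The adipocyte genes Plin1, Lep and Cfd were at 0 in all 8. The summed level of 6 adipocyte markers was 3.58 and 3.14 CPM in Tfh cells with the Bach2 vector, against 0.982 to 1.77 CPM in the other 6 libraries. Adipoq, which encodes an adipocyte hormone, reached 2.60 CPM.

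Per kilobase of exon, the most abundant of the 36 genes was Acly, which makes cytosolic acetyl-CoA from citrate, at a mean of 78.5 CPM per kb. Scd2, a fatty acid desaturase, followed at 69.0 CPM per kb, then the sterol isomerase gene Ebp at 37.2 and Srebf2 at 36.2 CPM per kb. At the other end, Scd1 was at 0.218, Abca1 at 0.289 and the polyunsaturated fatty acid desaturase gene Fads2 at 0.802 CPM per kb. These 3 were the members under 1 CPM per kb, and 15 members exceeded 10 CPM per kb. Scd1 and Scd2 are close paralogs, and how reads matching both were counted is not given in the sources used here, so the low value of Scd1 is uncertain.

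The members also differed in how far they moved over the 8 libraries. Srebf1, at 117 to 131 CPM, and Srebf2, at 240.0 to 271 CPM, were the steadiest, with a highest library 1.12 and 1.13 times the lowest. Among genes above 4 CPM in every library, the widest ranges were those of Acss2 (5.04 times), Idi1 (3.38 times), Tm7sf2 (3.19 times) and Mvd (3.13 times).

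**Figure D1:**
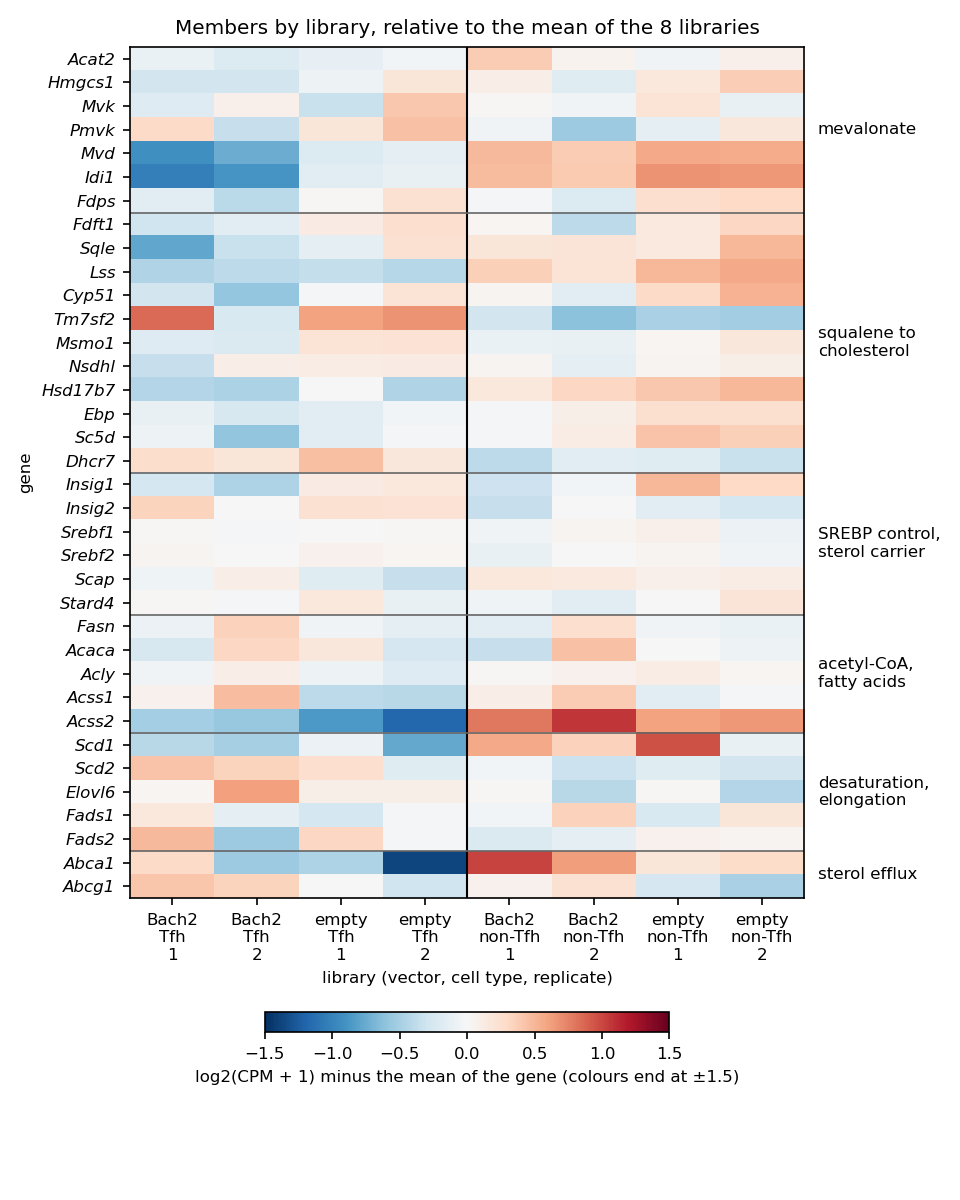
Each row is a member gene and each column a library, coloured by log2(CPM + 1) minus that gene's mean over the 8 libraries (red higher, blue lower, colours end at ±1.5). Idi1 and Mvd are bluest in the Tfh cells with the Bach2 vector (Idi1 at 16.8 and 18.6 CPM), Acss2 is blue in all 4 Tfh libraries, and Srebf1 and Srebf2 are nearly white throughout.

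Proximal promoter sequence is shown for 4 sterol enzyme genes whose expression is followed below, because sterol enzyme promoters are known to bind SREBP together with the factor NF-Y, which reads CCAAT boxes. Each stretch is the 150 bases before the RefSeq transcription start on GRCm38.p6, 5′ to 3′ on the strand of the gene. Gene positions given below are from GENCODE M21, where some genes begin upstream of the RefSeq start. The Msmo1 stretch lies wholly, and the Idi1 and Cyp51 stretches partly, inside those gene bounds. Capitals mark matches to 3 motifs searched on both strands. CCAAT is the NF-Y box, which reads ATTGG where it lies on the other strand. TCACNCCAC is the core of the sterol regulatory element. The last, TGAGTCA, is a site of the AP-1 and Bach families. The matches did not overlap each other. The genes are Idi1 (chr13:8885456-8885605, plus strand), which isomerises isopentenyl diphosphate; Hmgcs1 (chr13:119690201-119690350, plus strand), which makes HMG-CoA; Cyp51 (chr5:4104698-4104847, minus strand), the lanosterol demethylase; and Msmo1 (chr8:64733579-64733728, minus strand), which oxidises methyl groups of the sterol ring.
Idi1: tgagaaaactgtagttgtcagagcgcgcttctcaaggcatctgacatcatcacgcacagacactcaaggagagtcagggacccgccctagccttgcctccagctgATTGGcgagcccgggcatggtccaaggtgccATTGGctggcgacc
Hmgcs1: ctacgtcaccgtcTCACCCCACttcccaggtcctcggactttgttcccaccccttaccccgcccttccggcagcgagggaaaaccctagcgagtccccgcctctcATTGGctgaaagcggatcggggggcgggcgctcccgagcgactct
Cyp51: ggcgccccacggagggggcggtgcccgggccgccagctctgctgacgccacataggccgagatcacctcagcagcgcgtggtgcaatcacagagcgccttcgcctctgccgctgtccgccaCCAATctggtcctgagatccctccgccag
Msmo1: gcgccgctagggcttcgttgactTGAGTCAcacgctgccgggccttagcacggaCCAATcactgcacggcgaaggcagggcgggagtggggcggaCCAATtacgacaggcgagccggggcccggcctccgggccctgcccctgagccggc

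RefSeq windows of 300 bases (250 before and 50 after the start) were at hand for 28 of the 36 members. CCAAT was present in 14 of the 15 sterol enzyme genes with a window (93.3%), against 41.1% of 27025 genes with a window. It was also present in 4 of 5 genes of the SREBP control group and in 3 of 5 genes of acetyl-CoA supply and fatty acid synthesis. The sterol regulatory element core matched in 1 member, Hmgcs1 (3.57%, against 1.44% of all genes). TGAGTCA matched in 2, Msmo1 and Dhcr7 (7.14%, near the 5.95% of all genes). A gene can have several windows and was counted if any of them matched. For Dhcr7 the matches, CCAAT included, were only in window 3. All matches given here are letter matches in a short window and say nothing of which factor was bound in these cells.

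Averaged over both cell types, 5 of the 18 sterol enzyme genes and Insig1 fell with the Bach2 vector, and the acetate-activating enzyme genes Acss1 and Acss2 and the efflux pump gene Abcg1 rose. The question this comparison addresses is what a short burst of Bach2 does in Tfh and in non-Tfh cells. In Tfh cells, 3 of the 36 members passed an adjusted p of 0.05 (8.33% of them, against 1.71% of all 11475 genes tested). Adjusted p-values are Benjamini-Hochberg values over all genes, from the quasi-likelihood test of edgeR. Idi1 fell, and Acss1 and Abcg1 rose. In non-Tfh cells, 0 of 36 members passed, against 0.871% of all genes; 9 members had an unadjusted p under 0.05, and DESeq2 called 1, Abcg1. Averaged over both cell types, which uses all 8 libraries at once, 9 members passed (25.0%, against 5.27% of all genes), 6 lower and 3 higher. In bulk RNA, fewer cells of a state and less RNA per cell cannot be told apart.

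**Figure D2:**
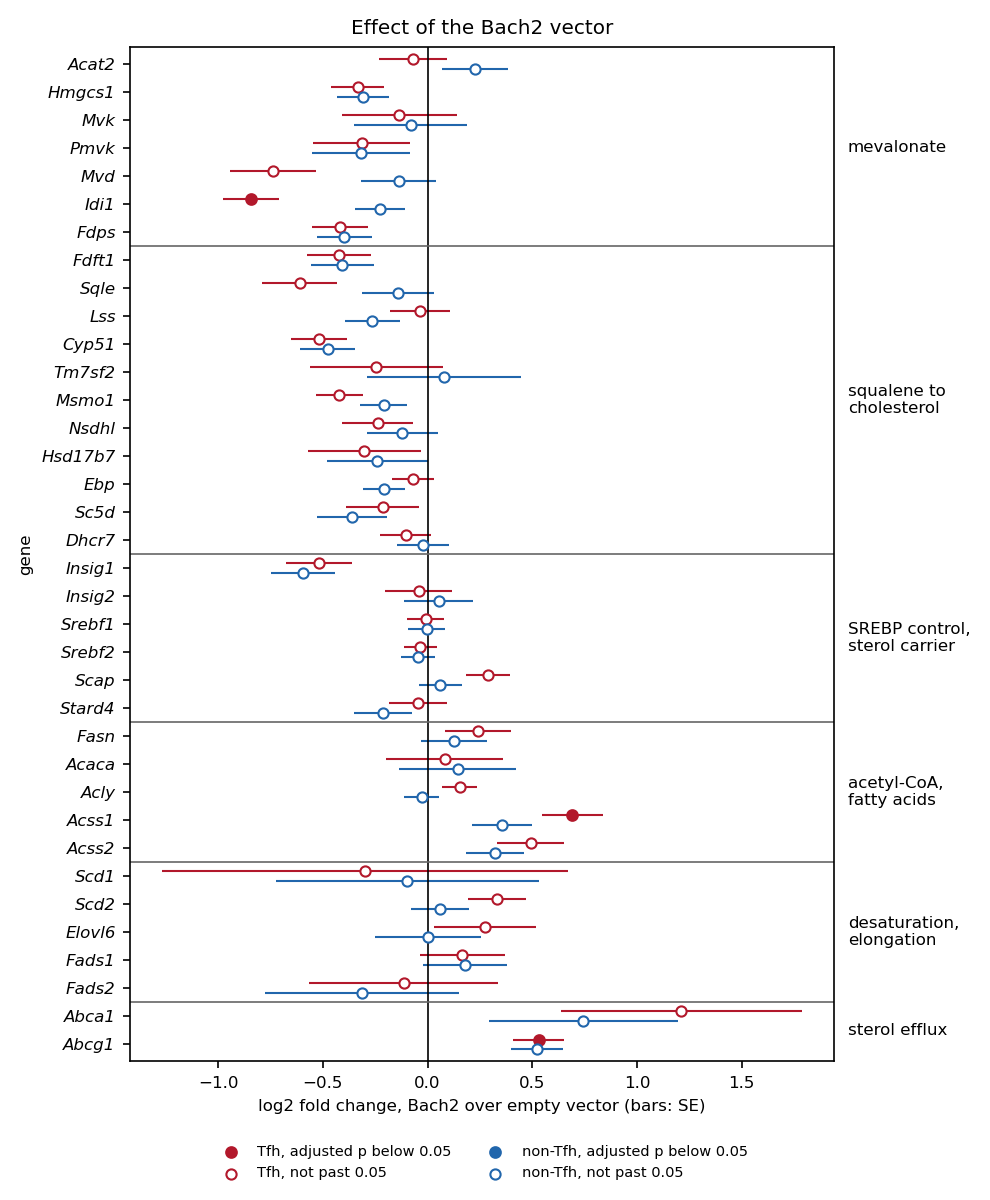
Log2 fold change of Bach2 over empty vector for each member (points) with its standard error (bars), in Tfh cells (red) and non-Tfh cells (blue); filled points passed an adjusted p of 0.05. The 18 sterol enzymes lie left of 0 in Tfh cells (median -0.31) and 16 of them do so in non-Tfh cells (median -0.22), whereas Acss1, Acss2 and Abcg1 lie right of 0 in both.

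As a group, the 18 enzymes from Acat2 to Dhcr7 leaned to lower levels under both sorts. In Tfh cells all 18 had a negative estimate, with a median log2 fold change of -0.31, where 5752 of 11475 genes were negative and the median of all genes was -0.0005. In non-Tfh cells 16 of 18 were negative, with a median of -0.22. Their summed level was 619 and 584 CPM in Tfh cells with the Bach2 vector, against 722 and 781 CPM with the empty vector. In non-Tfh cells the sums were 738 and 688 CPM with the Bach2 vector, against 816 and 877 CPM with the empty vector. Within each cell type both Bach2 libraries were thus below both empty vector libraries. Averaged over cell types, 5 of the 18 fell and 0 rose by the test, where 2.9% of all genes fell and 2.37% rose. The 5 were Idi1 and Fdps of the mevalonate arm, and Fdft1, Cyp51 and Msmo1 of the squalene to cholesterol arm.

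Idi1 (chromosome 13, 8885501 to 8892451) moved most among the enzymes of the mevalonate and isoprenoid arm. It had 16.8 and 18.6 CPM in Tfh cells with the Bach2 vector, against 31.1 and 32.4 CPM with the empty vector. In non-Tfh cells it had 49.4 and 46.7 CPM with the Bach2 vector, against 56.9 and 55.6 CPM with the empty vector. The groups did not overlap, and the Tfh libraries with the Bach2 vector were the lowest of all. Its log2 fold change was -0.84 in Tfh cells (SE 0.133, adjusted p = 0.00963, edgeR). That in non-Tfh cells was -0.23 (SE 0.120, adjusted p = 0.554). Averaged over cell types it was -0.54 (SE 0.0893, adjusted p = 0.00516). The Tfh call was lost without replicate 2 of the Tfh cells with the empty vector (adjusted p = 0.0703), and the averaged call held under every alternative run, with adjusted p up to 0.0290.

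Fdps (chromosome 3, 89093588 to 89101959), which encodes farnesyl diphosphate synthase, had log2 fold changes of -0.42 in Tfh cells and -0.40 in non-Tfh cells. Its levels were 40.8 and 34.4 CPM in Tfh cells with the Bach2 vector, against 46.6 and 54.0 CPM with the empty vector. Non-Tfh cells had 45.2 and 39.8 CPM with the Bach2 vector, against 54.9 and 57.0 CPM with the empty vector. Within each cell type the groups did not overlap, and the averaged log2 fold change was -0.41 (SE 0.0943, adjusted p = 0.0245, edgeR). That call was lost in 5 of the 8 fits that left out a library, with adjusted p up to 0.104. Of the other 5 genes of this arm, Mvd, the mevalonate diphosphate decarboxylase, had -0.74 in Tfh cells (adjusted p = 0.0914) and -0.14 in non-Tfh cells (adjusted p = 0.875). Hmgcs1 had -0.33 in Tfh cells and -0.31 in non-Tfh cells, and its averaged value of -0.32 missed the threshold (adjusted p = 0.0537). The kinases Mvk and Pmvk and the thiolase Acat2 had averaged estimates that did not pass either.

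In the arm from squalene to cholesterol, Cyp51 moved most by the averaged test. Cyp51 (chromosome 5, 4081145 to 4104746) was at 70.9 and 57.1 CPM in Tfh cells with the Bach2 vector, against 84.6 and 99.0 CPM with the empty vector. Among non-Tfh cells the values were 88.7 and 76.0 CPM with the Bach2 vector, against 105 and 124 CPM with the empty vector. The Bach2 libraries were below the empty vector libraries of the same cell type in every case. The averaged log2 fold change was -0.50 (SE 0.0937, adjusted p = 0.0103, edgeR), and the call was lost without replicate 2 of the non-Tfh cells with the empty vector (adjusted p = 0.0592). The library kit does not mark strand, and Cyp51 shares 166 exon bases with Akap9 on the opposite strand, whose averaged log2 fold change was 0.30.

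Fdft1, which encodes squalene synthase and starts the sterol branch proper, lies on chromosome 14 (63145150 to 63179578). It had 32.2 and 35.5 CPM in Tfh cells with the Bach2 vector, against 43.4 and 47.5 CPM with the empty vector, and in non-Tfh cells 40.5 and 30.1 CPM with the Bach2 vector, against 44.1 and 49.5 CPM with the empty vector. No Bach2 library reached the level of an empty vector library of its cell type. The averaged log2 fold change of -0.42 passed (SE 0.106, adjusted p = 0.0387, edgeR). The call was lost in 6 of the 8 fits that left out a library (adjusted p up to 0.165). Fdft1 shares 774 exon bases with Ctsb on the opposite strand, a cathepsin gene at a mean of 968 CPM with an averaged log2 fold change of -0.18 (adjusted p = 0.151).

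Msmo1 (chromosome 8, 64718139 to 64733792) showed little spread between replicates. It was at 47.4 and 46.9 CPM in Tfh cells with the Bach2 vector, against 62.7 and 63.5 CPM with the empty vector, and in non-Tfh cells at 50.6 and 50.6 CPM with the Bach2 vector, against 55.4 and 61.7 CPM with the empty vector. All 4 Bach2 libraries were below all 4 empty vector libraries. The averaged log2 fold change was -0.32 (SE 0.0783, adjusted p = 0.0340, edgeR), the smallest in size among the 9 that passed. It was lost in 7 of the 8 fits that left out a library (adjusted p up to 0.168). Sqle, the squalene epoxidase gene, had -0.61 in Tfh cells (adjusted p = 0.109) and -0.14 in non-Tfh cells (adjusted p = 0.859), and the averaged value of -0.38 did not pass (adjusted p = 0.0999). The remaining genes of this arm had averaged log2 fold changes of smaller size that did not pass.

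**Figure D3:**
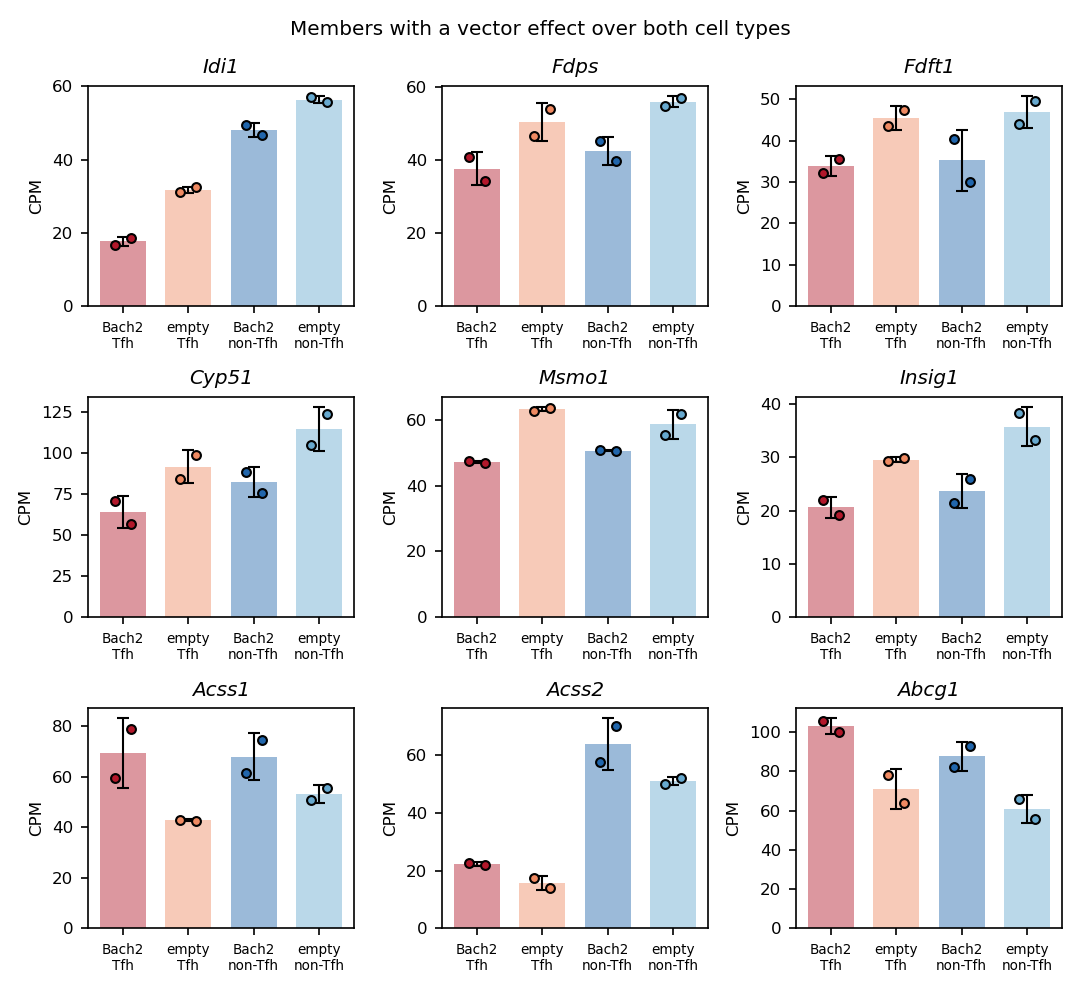
CPM of the 9 members that passed in the averaged comparison, by group; bars are means, error bars are SD (n = 2) and points are libraries, with axes that start at 0. In Idi1, Fdps, Fdft1, Cyp51, Msmo1 and Insig1 the Bach2 libraries lie below the empty vector libraries of the same cell type, and in Acss1, Acss2 and Abcg1 they lie above them.

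Of the 6 genes of SREBP control and sterol carriage, Insig1 was the only 1 to pass in a vector comparison, and the estimates of the SREBP genes themselves were close to 0. Insig1 (chromosome 5, 28071363 to 28078662), itself a known SREBP target that feeds back on SREBP, was at 22.03 and 19.2 CPM in Tfh cells with the Bach2 vector, against 29.3 and 29.9 CPM with the empty vector. Its non-Tfh values were 21.4 and 25.9 CPM with the Bach2 vector, against 38.3 and 33.2 CPM with the empty vector. All 4 Bach2 libraries were below all 4 empty vector libraries. The log2 fold changes were -0.52 in Tfh cells (adjusted p = 0.111) and -0.59 in non-Tfh cells (adjusted p = 0.107). Averaged, the value was -0.56 (SE 0.109, adjusted p = 0.0115, edgeR), and it was lost without replicate 1 of the non-Tfh cells with the empty vector (adjusted p = 0.0585).

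Srebf2 had averaged log2 fold change -0.04 (95% interval -0.16 to 0.08), and Srebf1 had -0.007 (-0.14 to 0.13). The lower ends of both intervals were above the estimates of the 6 members that fell, which are named because they passed. The interval of Msmo1 (-0.48 to -0.15) still overlapped that of Srebf2. Whether the SREBP genes differ from these members was not tested. Insig2, the sterol carrier gene Stard4 and the escort gene Scap did not pass in the vector comparisons.

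Genes of acetyl-CoA supply and fatty acid synthesis leaned the other way. All 5 had a positive estimate in Tfh cells (median log2 fold change 0.24) and 4 of 5 in non-Tfh cells (median 0.14), and those that passed were the acetyl-CoA synthetase genes Acss1, whose enzyme works in mitochondria, and Acss2, whose enzyme works in cytosol and nucleus. The median of the group rests on few libraries. In non-Tfh cells it was -0.05 without replicate 2 of the cells with the Bach2 vector and 0.46 without replicate 1, and in Tfh cells it was 0.08 without replicate 2 of the cells with the Bach2 vector and 0.44 without replicate 1. In both cell types replicate 2 with the Bach2 vector had the highest Fasn and Acaca of the 4 libraries.

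Acss1 (chromosome 2, 150618105 to 150668500) was at 59.5 and 79.0 CPM in Tfh cells with the Bach2 vector, against 43.0 and 42.6 CPM with the empty vector. In the non-Tfh sort the gene was at 61.3 and 74.5 CPM with the Bach2 vector, against 50.7 and 55.6 CPM with the empty vector. All 4 Bach2 libraries exceeded all 4 empty vector libraries. Its log2 fold change was 0.69 in Tfh cells (SE 0.145, adjusted p = 0.0282, edgeR), and 0.35 in non-Tfh cells (adjusted p = 0.403). Averaged, it was 0.52 (SE 0.102, adjusted p = 0.0116). The Tfh call was lost without replicate 1 or replicate 2 of the Tfh cells with the empty vector, or without replicate 2 of those with the Bach2 vector (adjusted p up to 0.220), and the averaged call without replicate 1 of the non-Tfh cells with the empty vector (0.0587).

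Acss2 (chromosome 2, 155517948 to 155585724) had 22.7 and 21.9 CPM in Tfh cells with the Bach2 vector, against 17.6 and 13.9 CPM with the empty vector. The non-Tfh libraries had 57.6 and 70.2 CPM with the Bach2 vector, against 50.2 and 52.1 CPM with the empty vector. The groups did not overlap within a cell type, and the averaged log2 fold change was 0.41 (SE 0.106, adjusted p = 0.0402, edgeR). This was lost in 6 of the 8 fits that left out a library (adjusted p up to 0.172). The promoters of these 2 genes are shown because both rose in the averaged comparison, in which 5 of the 18 sterol enzyme genes fell. They are 150-base stretches before the RefSeq start on GRCm38.p6 as above, chr2:150668241-150668390 on the minus strand for Acss1 and chr2:155517893-155518042 on the plus strand for Acss2, with CCAAT matches on either strand in capitals. The Acss1 stretch lies wholly, and the Acss2 stretch partly, inside the gene bounds of GENCODE M21. The Acss1 stretch holds none of the 3 motifs, and the Acss2 stretch holds a CCAAT box.
Acss1: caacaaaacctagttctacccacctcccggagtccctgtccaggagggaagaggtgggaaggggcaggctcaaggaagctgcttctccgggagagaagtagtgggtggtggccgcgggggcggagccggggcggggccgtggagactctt
Acss2: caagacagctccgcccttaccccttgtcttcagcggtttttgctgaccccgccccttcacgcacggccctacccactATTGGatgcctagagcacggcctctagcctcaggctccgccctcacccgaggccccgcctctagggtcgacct

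Fatty acid synthase (Fasn) was at 169 and 229 CPM in Tfh cells with the Bach2 vector, against 173 and 163 CPM with the empty vector, and the groups overlapped. Its log2 fold change was 0.24 in Tfh cells (95% interval -0.11 to 0.59) and 0.13 in non-Tfh cells (-0.22 to 0.48). Acly had 0.15 in Tfh cells (-0.02 to 0.33) and -0.03 in non-Tfh cells (-0.21 to 0.15). The acetyl-CoA carboxylase gene Acaca did not pass either. Of the 5 desaturation and elongation genes, 0 passed in a vector comparison with edgeR or DESeq2, and 1 had an unadjusted p under 0.05 in Tfh cells. That was Scd2, the desaturase transcript with the highest level, at a log2 fold change of 0.33 (unadjusted p = 0.0368, adjusted p = 0.276, edgeR).

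The efflux pump gene Abcg1 rose. Abcg1 (chromosome 17, 31057675 to 31117988), which exports cholesterol to lipoprotein, was at 106 and 100.01 CPM in Tfh cells with the Bach2 vector, against 78.3 and 63.9 CPM with the empty vector. Non-Tfh libraries were at 82.2 and 92.9 CPM with the Bach2 vector, against 66.0 and 55.9 CPM with the empty vector. Every Bach2 library exceeded every empty vector library. The log2 fold change was 0.53 in Tfh cells (SE 0.123, adjusted p = 0.0447, edgeR), and in non-Tfh cells it was 0.52 (SE 0.124, adjusted p = 0.0764). Averaged, it was 0.53 (SE 0.0871, adjusted p = 0.00487). The averaged call held under every alternative run (adjusted p up to 0.0362), while the Tfh call was lost in 5 of the 8 fits that left out a library (adjusted p up to 0.371).

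Abca1, the other efflux pump, had 3 to 57 counts a library. It was at 3.36 and 1.45 CPM in Tfh cells with the Bach2 vector, against 1.61 and 0.380 CPM with the empty vector, and in non-Tfh cells at 6.22 and 4.52 CPM with the Bach2 vector, against 3.05 and 3.34 CPM with the empty vector. The Tfh groups overlapped, and the averaged log2 fold change of 0.98 did not pass (SE 0.366, adjusted p = 0.141, edgeR).

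The count of members called depended on single libraries. In Tfh cells it was 0 without replicate 2 of the cells with the empty vector, the shallowest library, and 1 without replicate 2 of the cells with the Bach2 vector, in place of 3. Averaged over cell types, it ran from 3 (without replicate 1 of the non-Tfh cells with the empty vector) to 11 (without replicate 1 of the Tfh cells with the empty vector), in place of 9.

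Proliferation genes moved with the same libraries. Of 28 such genes, 21 fell in Tfh cells with the Bach2 vector and 0 rose (75% called, against 1.71% of all genes). The median log2 fold change of the 28 was -0.62. In non-Tfh cells 0 of 28 passed with edgeR or DESeq2, and 6 had an unadjusted p under 0.05 (median -0.16). All 28 had a negative estimate in Tfh cells, and all 28 also in non-Tfh cells. Their summed level was 3170 and 3107 CPM in Tfh cells with the Bach2 vector, against 4304 and 4957 CPM with the empty vector. In the non-Tfh sort it was 4555 and 4265 CPM with the Bach2 vector, against 4771 and 5134 CPM with the empty vector. Cdc6, which loads the replicative helicase, had -1.22 in Tfh cells (SE 0.156, adjusted p = 0.00339, edgeR), and Mcm5, a part of that helicase, had -0.74 (SE 0.0871, adjusted p = 0.00183). In non-Tfh cells the median of the sterol enzymes, at -0.22, was larger in size than that of the proliferation genes, and in Tfh cells it was smaller. The part of proliferation in the sterol result was not tested.

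Whether the vector acted differently in the cell types was tested as the interaction, which subtracts the vector effect of the non-Tfh sort from that of the Tfh sort. No gene passed it with edgeR, members included (0 of 36, against 0% of 11475 genes), while 539 genes and 2 members, Idi1 and Mvd, had an unadjusted p under 0.05. DESeq2 called 4 genes and no member. The interaction for Idi1 was -0.61 (95% interval -0.997 to -0.231, unadjusted p = 0.00404, adjusted p = 0.747), and for Mvd -0.60 (-1.18 to -0.0132, adjusted p = 0.998). For Abcg1 it was 0.0075 (-0.37 to 0.38) and for Insig1 0.08 (-0.39 to 0.54). Of the 28 proliferation genes, 22 had an unadjusted p under 0.05 in this test and 0 passed. The effects of the vector on single members are thus not shown to differ between the sorts.

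Between the cell types, most transcripts of the cholesterol route that passed were lower in the Tfh sort, and the largest difference that passed was in Acss2. With the Bach2 vector, 8 of 36 members passed (22.2%, against 24.4% of all genes), 2 higher and 6 lower. With the empty vector, 10 passed (27.8%, against 21.9% of all genes), 2 higher and 8 lower. Those shares are near the background, so the members were called about as often as all genes were. The 6 members called in both were Idi1, Mvd, Lss, Hsd17b7 and Acss2, all lower in Tfh cells, and Dhcr7, higher. The comparisons use the same libraries as the vector comparisons, so a member low in Tfh cells with the Bach2 vector enters both kinds of difference.

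**Figure D4:**
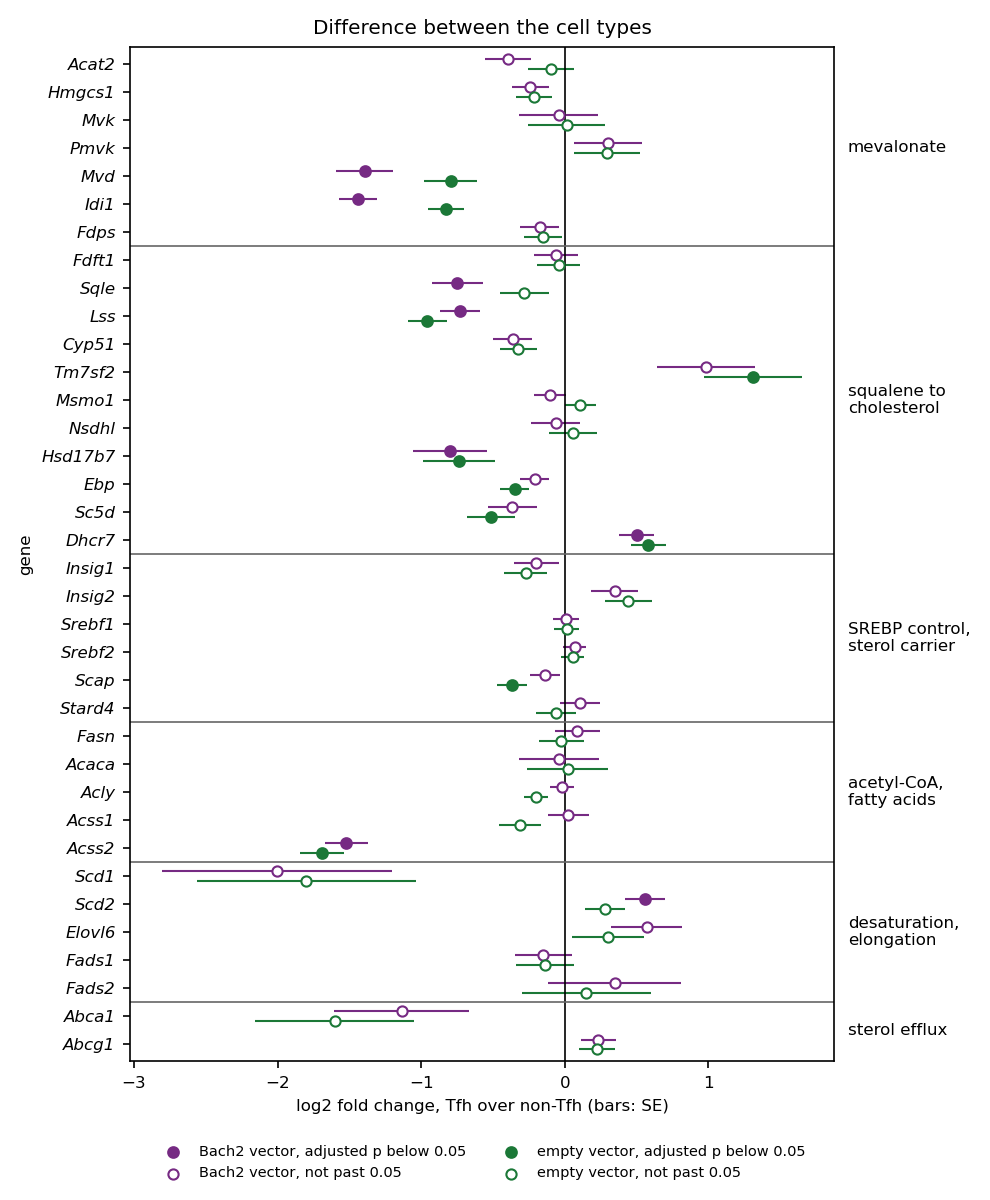
Log2 fold change of Tfh over non-Tfh cells for each member (points) with its standard error (bars), with the Bach2 vector (purple) and the empty vector (green); filled points passed an adjusted p of 0.05. With the Bach2 vector Acss2 is at -1.52, Idi1 at -1.44 and Dhcr7 at 0.50, and with the empty vector Acss2 is at -1.69, Idi1 at -0.83 and Dhcr7 at 0.58.

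The levels of Acss2, given above, were 13.9 to 22.7 CPM over the 4 Tfh libraries and 50.2 to 70.2 CPM over the 4 non-Tfh libraries, with no overlap. The log2 fold change was -1.52 with the Bach2 vector (SE 0.147, adjusted p = 5.09e-06, edgeR). It was -1.69 with the empty vector (SE 0.153, adjusted p = 2.87e-06). Both calls held under all 13 alternatives. Acss1, the mitochondrial counterpart, had 0.025 with the Bach2 vector and -0.31 with the empty vector, and neither passed. Acss2 shares 395 exon bases with Gss on the opposite strand, at a mean of 19.9 CPM and not past the threshold between the cell types (adjusted p = 0.235 with the Bach2 vector and 0.403 with the empty vector).

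In the mevalonate arm, Idi1 and Mvd were the members that passed. Idi1 had -1.44 with the Bach2 vector (SE 0.130, adjusted p = 2.90e-06, edgeR), and -0.83 with the empty vector (SE 0.123, adjusted p = 0.000233). Mvd (chromosome 8, 122433601 to 122443422) was at 5.75 and 6.64 CPM in Tfh cells against 16.9 and 15.6 CPM in non-Tfh cells under the Bach2 vector, and at 10.03 and 10.6 CPM in Tfh cells against 18.0 and 17.8 CPM in non-Tfh cells with the empty vector. All 4 Tfh libraries were below all 4 non-Tfh libraries. With the Bach2 vector the log2 fold change was -1.39 (SE 0.198, adjusted p = 0.000153), and with the empty vector it was -0.79 (SE 0.186, adjusted p = 0.00701). The call with the empty vector was lost without replicate 1 of the Tfh cells with the empty vector (adjusted p = 0.0662). The other 5 genes of this arm did not pass, Hmgcs1 and Fdps among them.

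Lss, Sqle and Hsd17b7 of the squalene to cholesterol arm were lower in Tfh cells. Lss (chromosome 10, 76531588 to 76557138), which closes squalene epoxide into lanosterol, was at 20.1 and 20.9 CPM in Tfh cells against 35.8 and 32.2 CPM in non-Tfh cells under the Bach2 vector. Under the empty vector it was at 21.5 and 20.5 CPM in Tfh cells against 39.8 and 41.8 CPM in non-Tfh cells. The 4 Tfh libraries were nearly level and all below the non-Tfh ones. With the Bach2 vector the log2 fold change was -0.73 (SE 0.138, adjusted p = 0.00144, edgeR), with the empty vector -0.96 (SE 0.137, adjusted p = 0.000162), and both calls held under all 13 alternatives.

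Sqle (chromosome 15, 59315077 to 59331192) passed with the Bach2 vector, at 26.9 and 37.0 CPM in Tfh cells against 53.4 and 53.7 CPM in non-Tfh cells (-0.75, SE 0.178, adjusted p = 0.00783, edgeR). With the empty vector it was at 42.4 and 55.2 CPM in Tfh cells against 51.8 and 66.4 CPM in non-Tfh cells, where the groups overlapped and the difference did not pass. The Bach2 call was lost without replicate 1 of the Tfh cells with the Bach2 vector (adjusted p = 0.0718). Hsd17b7 (chromosome 1, 169949535 to 169969241), a sterol ketone reductase, was low, at 4.88 and 4.71 CPM in Tfh cells against 7.86 and 8.84 CPM in non-Tfh cells under the Bach2 vector, and at 6.92 and 4.81 CPM in Tfh cells against 9.49 and 10.2 CPM in non-Tfh cells with the empty vector. Every Tfh library was below every non-Tfh library. Its log2 fold change was -0.80 with the Bach2 vector (adjusted p = 0.0373, edgeR), a call kept under 5 of 13 alternatives (adjusted p up to 0.167). With the empty vector it was -0.74 (adjusted p = 0.0493), a call kept under 2 of 13 alternatives (adjusted p up to 0.289).

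Late enzymes of the route did not all move together. Dhcr7 (chromosome 7, 143823145 to 143848410), a reductase that gives cholesterol itself, was higher in Tfh cells, at 88.7 and 83.6 CPM against 56.0 and 65.8 CPM in non-Tfh cells under the Bach2 vector, and at 102 and 83.4 CPM against 65.2 and 58.5 CPM in non-Tfh cells with the empty vector. All 4 Tfh libraries were above all 4 non-Tfh libraries. With the Bach2 vector the log2 fold change was 0.50 (SE 0.123, adjusted p = 0.00842, edgeR) and with the empty vector 0.58 (SE 0.123, adjusted p = 0.00356). Each call was lost in 2 of the 8 fits that left out a library, with adjusted p up to 0.0835 with the Bach2 vector and 0.0636 with the empty vector.

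Tm7sf2 (chromosome 19, 6062821 to 6068373), another sterol reductase gene, was at 13.1 and 5.68 CPM in Tfh cells against 5.46 and 4.11 CPM in non-Tfh cells with Bach2, where the Tfh replicates were far apart and the difference did not pass. With the empty vector it was at 10.9 and 11.5 CPM in Tfh cells against 4.58 and 4.45 CPM in non-Tfh cells (1.31, SE 0.341, adjusted p = 0.0140, edgeR). Tm7sf2 shares 532 exon bases with Vps51 on the same strand, which had 0.08 with the empty vector (adjusted p = 0.719). The empty vector call was lost whenever 1 of the 4 libraries compared was left out (adjusted p up to 0.0959).

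With the empty vector, 2 more late enzymes and Scap were lower in Tfh cells. Ebp (chromosome X, 8185329 to 8193512), the sterol isomerase, was with the Bach2 vector at 79.0 and 72.4 CPM in Tfh cells against 84.4 and 90.6 CPM in non-Tfh cells, and with the empty vector at 75.7 and 83.3 CPM in Tfh cells against 101 and 101 CPM in non-Tfh cells (-0.35, SE 0.0998, adjusted p = 0.0222, edgeR). Sc5d (chromosome 9, 42251595 to 42264256), the lathosterol desaturase, was with the Bach2 vector at 26.5 and 18.2 CPM in Tfh cells against 27.4 and 30.4 CPM in non-Tfh cells, and with the empty vector at 24.8 and 27.3 CPM in Tfh cells against 38.0 and 36.3 CPM in non-Tfh cells (-0.51, SE 0.167, adjusted p = 0.0414, edgeR). Scap (chromosome 9, 110333288 to 110384950) was with the Bach2 vector at 74.0 and 82.9 CPM in Tfh cells against 86.7 and 85.8 CPM in non-Tfh cells, and with the empty vector at 67.8 and 60.5 CPM in Tfh cells against 81.9 and 83.5 CPM in non-Tfh cells (-0.36, SE 0.105, adjusted p = 0.0226, edgeR). In each of the 3 genes the groups did not overlap under either vector, but with the Bach2 vector none passed. Ebp then had -0.21 (adjusted p = 0.154, edgeR), Sc5d -0.37 (adjusted p = 0.142) and Scap -0.14 (adjusted p = 0.381). The calls of Ebp and Scap were each lost in 3 of the 8 fits that left out a library (adjusted p up to 0.191 for Ebp and 0.164 for Scap), and that of Sc5d in 4 (adjusted p up to 0.230).

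Among fatty acid genes other than Acss2, Scd2 passed between the cell types. Scd2 (chromosome 19, 44293674 to 44306864) was at 499.8 and 465 CPM in Tfh cells against 361 and 295 CPM in non-Tfh cells under the Bach2 vector (0.56, SE 0.139, adjusted p = 0.0146, edgeR). Under the empty vector it was at 441 and 325 CPM in Tfh cells against 325 and 305 CPM in non-Tfh cells, and did not pass. The call with the Bach2 vector was lost without replicate 1 of the Tfh cells or without replicate 2 of the non-Tfh cells (adjusted p up to 0.0891). Abcg1 and Abca1 did not pass between the cell types.

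The number of members called with the empty vector depended on single libraries. The count over the 36, 10 with all libraries, was 5 without replicate 1 of the Tfh cells, 5 without replicate 1 of the non-Tfh cells and 4 without replicate 2 of the non-Tfh cells with the empty vector. Proliferation genes also differed between the sorts with the Bach2 vector, where 24 of 28 were lower in Tfh cells and 1 higher (median -0.54). That is 89.3% called, against 24.4% of all genes. With the empty vector 7 were lower and 1 higher (median -0.13), and the share called, 28.6%, was near the 21.9% of all genes. The B cell marker list was at 1008 and 842 CPM in Tfh cells against 520 and 404 CPM in non-Tfh cells under the Bach2 vector, and at 1019 and 932 CPM in Tfh cells against 543 and 447 CPM in non-Tfh cells with the empty vector. Nearly all of it was Ighm and Cd22, and both were higher in Tfh cells. Ighm had log2 fold changes of 1.03 with the Bach2 vector (adjusted p = 0.00144, edgeR) and 1.05 with the empty vector (adjusted p = 0.00137). Those of Cd22 were 0.9997 with the Bach2 vector (adjusted p = 4.81e-05, edgeR) and 0.82 with the empty vector (adjusted p = 0.000230). The other 3 markers tested went the other way: they had negative estimates under both vectors, at low levels, and did not pass. The median log2 fold change of the 5 markers tested was -1.26 with the Bach2 vector and -0.85 with the empty vector. In the averaged vector comparison Cd22 fell (-0.39, adjusted p = 0.0183, edgeR) and Ighm had -0.008. The part of proliferation or of B cell transcripts in these differences was not tested.

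Beyond the 36 members, a wider list of other sterol and lipid synthesis genes was counted, of which 34 of 42 were tested. In Tfh cells 1 of the 34 fell with the Bach2 vector (2.94%, against 1.71% of all genes called). In non-Tfh cells 0 passed with edgeR or DESeq2 (4 had an unadjusted p under 0.05). Averaged over cell types, 2 fell and 1 rose (8.82%, against 5.27% of all genes). The 1 that rose was Mylip, an LXR target that encodes a ubiquitin ligase (0.39, SE 0.0904, adjusted p = 0.0246, edgeR). Between the cell types, 7 were higher and 7 lower in Tfh cells with the Bach2 vector (41.2%, against 24.4% of all genes). With the empty vector 6 were higher and 7 lower (38.2%, against 21.9% of all genes). Rxra, the partner receptor of LXR, was lower in Tfh cells, with log2 fold changes of -2.05 under the Bach2 vector (SE 0.165, adjusted p = 1.17e-06) and -2.36 under the empty vector (SE 0.166, adjusted p = 3.46e-07). Tmem97, a sterol-responsive membrane protein gene, was also lower, at -1.18 with the Bach2 vector (SE 0.190, adjusted p = 0.000418) and -0.996 with the empty vector (SE 0.183, adjusted p = 0.00129).

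Of 18 fatty acid oxidation genes tested, 0 passed for the vector in either cell type or averaged, by edgeR or DESeq2. An unadjusted p under 0.05 was found for 3 in Tfh cells, 2 in non-Tfh cells and 4 averaged, and the median log2 fold changes were -0.04 in Tfh cells and -0.11 in non-Tfh cells. Between the cell types, 3 were higher and 0 lower in Tfh cells with the Bach2 vector (16.7%, against 24.4% of all genes). With the empty vector 2 were higher and 1 lower (16.7%, against 21.9% of all genes). The genes of this list were thus called no more often than all genes were. Decr1, a reductase for unsaturated fatty acids in mitochondria, was higher by 1.34 on the log2 scale under the Bach2 vector (SE 0.167, adjusted p = 7.97e-05, edgeR) and by 1.49 under the empty vector (SE 0.170, adjusted p = 4.19e-05). Hadhb, a subunit of the mitochondrial trifunctional protein, was higher by 0.49 under the Bach2 vector (SE 0.0814, adjusted p = 0.000558, edgeR) and by 0.50 under the empty vector (SE 0.0816, adjusted p = 0.000505).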

How the data were processed

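Sorted Smarta T cells were profiled with Smart-Seq v4 and Nextera XT, a kit pair that does not mark strand, and paired reads of 75 bases, per the labels' protocols. The deposited values are raw counts of reads per Ensembl gene, which the authors made with TopHat2, Bowtie2 and featureCounts on GRCm38/mm10, per the submitters' processing notes. Of tool versions and of reads with several matches, nothing is given in the sources used here. Library totals ran from 7862879 to 9889859 counts. The floors (3 counts, 95% confidence) cover counting error only, since reads carry no molecular identifiers. The 95% intervals of the log2 fold changes come from the fit and include the spread between replicates.

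Symbols, positions and exon lengths came from GENCODE M21 by Ensembl ID, which matched 37607 of 39179 IDs. The other 1572 stayed in the fit. Promoters came from RefSeq (GRCm38.p6), which held a window for 28 of the 36 members. A model with 1 coefficient per group was fitted to the counts of all 8 libraries in edgeR 4.0.16 (R 4.3.3), with filterByExpr (minimum count 10, minimum total 15, leaving 11475 genes), TMM factors and the robust quasi-likelihood test, and p-values were adjusted by Benjamini-Hochberg over all 11475 genes at a threshold of 0.05. Standard errors were taken from the log2 fold change and its F value. The fit was tested on simulated counts with known changes. Alternatives were RLE factors, no filter, a replicate block, only the groups compared, DESeq2 1.42.0 and leaving out each library in turn. No library was a copy of its replicate (chi-square over degrees of freedom 5.98 to 9.36).

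The members, the other gene lists and the motifs were chosen with earlier results of these data known. Values in every library are given for members past the threshold in at least 1 of the 6 comparisons, and other members by level, range and counts; Hmgcs1, Fasn, Acly, Abca1, Srebf1 and Srebf2 are described beyond that rule and were added after their values were seen. Genes outside the list are the vector and sort checks and at most 4 of a list with the smallest p among those past the threshold. Some genes of the wider lists are counted but not reported here by name.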

Additional observations from a re-analysis of the deposited data

How the results depend on the processing

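Of 1442 values for 19 members under the alternatives, 1331 kept their direction and side of the threshold, 78 lost the call, 33 gained one and 0 reversed. RLE factors and fitting only the groups compared changed no count by more than 1.5 times. In Tfh cells the vector called 196 genes and 3 members, against 736 and 7 with no filter and 326 and 5 with DESeq2, and in non-Tfh cells 100 and 0, against 332 and 3 with no filter and 161 and 1 with DESeq2. Averaged, 605 genes were called, against 1255 with no filter. For the interaction, 0 genes were called, against 37 with no filter and 4 with DESeq2. With the Bach2 vector, 8 members differed between cell types, against 13 with no filter. The cause was not tested.

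The replicate numbers are not stated to pair samples, and deviations of same-numbered samples correlated between -0.004 and 0.240. With the number as a replicate block, the vector called 473 genes and 7 members in Tfh cells, 207 genes and 1 member in non-Tfh cells, 975 genes averaged and 3 genes in the interaction.

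Leaving out 1 library leaves a lone sample assumed to vary like the other groups. In Tfh cells the vector then called 21 to 254 genes and 0 to 3 members, and in non-Tfh cells 17 to 133 genes. Averaged, it called 190 to 764 genes and 3 to 11 members, and the interaction 0 to 1 genes. Between cell types with the empty vector, 1341 to 2698 genes and 4 to 11 members were called, and the median of the 18 sterol enzymes ran from -0.38 to -0.067. The median of the 5 acetyl-CoA and fatty acid synthesis genes, an alternative chosen after seeing the data, ran from 0.081 to 0.44 for the vector in Tfh cells, from -0.054 (reversed) to 0.46 in non-Tfh cells and from 0.069 to 0.29 averaged. Between cell types with the Bach2 vector it ran from -0.19 to 0.22, with 0.17 without replicate 2 of the non-Tfh cells, both reversed from -0.02. With 2 libraries a group and a biological coefficient of variation of 9.89%, genes with few counts, such as Scd1 (1 to 25 counts a library), are limited by depth.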
